A study of Rattus norvegicus with 8 samples.

Results

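The 37 genes described here code for proteins of the lysosome: cathepsins and other peptidases, glycosidases, proteins that handle lipids, proteins of the lysosomal membrane, the transcription factor Tfeb, and subunits of the proton pump that acidifies the lysosome. Each was taken from the deposited expression table by its gene symbol, and all 37 symbols were found, each on 1 of the 32623 genes of the table. All 37 passed the filter on low counts and are among the 16715 genes tested. Expression was measured by RNA sequencing of poly(A)-selected RNA from whole rat lung (Rattus norvegicus) in 4 libraries from rats given monocrotaline (MCT) and 4 control libraries. Monocrotaline, an alkaloid of Crotalaria plants, damages the endothelium of lung vessels and is a common way to produce pulmonary hypertension in rats. The labels used here state no strain, sex, age, dose, time after treatment or control treatment. They do not say whether each library is from its own rat, so the p-values below measure the spread between these libraries, which may be partly technical.

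Lysosomes are acidic organelles in which proteins, glycans and lipids taken up from outside the cell or delivered by autophagy are broken down. Most of their enzymes are made as precursors, tagged with mannose 6-phosphate in the Golgi apparatus and carried to the lysosome by receptors, and some, the cathepsins among them, can also be secreted. In the lung, macrophages are rich in lysosomes, and alveolar type 2 cells store surfactant in lamellar bodies, which are organelles related to lysosomes. Tfeb binds a short element in the promoters of many lysosomal genes whose core is the hexamer CACGTG.

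Of the 37 genes, 31 had a promoter window in the RefSeq table for the rat build GRCr8, from 250 bases before to 50 bases after the start of the gene. Atp6v0d2, Atp6v1b2, Atp6v1h, Ctsb, Hexa and Psap had none. The windows were searched for GTCACGTG on both strands, which on the other strand reads CACGTGAC and which contains CACGTG, the core of the Tfeb element. The longer motif was in the windows of 6 members (19.4% of 31), against 1.85% of the 33469 windows of all genes. The core was in 7 members (22.6%), the 6 and Cd63, against 6.42% of all windows. Members were counted by gene and the background by window, and a gene can have several windows, so the shares differ in unit. The 5 windows with the motif and the smallest p are printed 5′ to 3′ on the strand of the gene, with each match in capitals. They belong to 5 of the 6 members with an exact match to the longer motif. Inexact matches were not searched for.
Ctsd promoter, GRCr8 chr1:206968772-206969071, minus strand: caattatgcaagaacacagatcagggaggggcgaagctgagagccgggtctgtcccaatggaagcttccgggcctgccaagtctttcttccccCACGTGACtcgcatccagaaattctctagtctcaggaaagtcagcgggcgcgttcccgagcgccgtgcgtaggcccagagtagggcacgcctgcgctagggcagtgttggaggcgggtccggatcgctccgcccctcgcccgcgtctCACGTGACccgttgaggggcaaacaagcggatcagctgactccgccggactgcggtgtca
Glb1 promoter, GRCr8 chr8:122963468-122963767, plus strand: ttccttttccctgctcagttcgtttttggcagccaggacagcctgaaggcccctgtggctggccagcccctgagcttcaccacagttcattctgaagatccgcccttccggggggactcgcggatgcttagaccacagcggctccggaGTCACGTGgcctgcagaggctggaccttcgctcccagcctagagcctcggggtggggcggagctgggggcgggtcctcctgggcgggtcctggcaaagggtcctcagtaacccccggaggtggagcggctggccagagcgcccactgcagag
Mcoln1 promoter, GRCr8 chr12:6358008-6358307, plus strand: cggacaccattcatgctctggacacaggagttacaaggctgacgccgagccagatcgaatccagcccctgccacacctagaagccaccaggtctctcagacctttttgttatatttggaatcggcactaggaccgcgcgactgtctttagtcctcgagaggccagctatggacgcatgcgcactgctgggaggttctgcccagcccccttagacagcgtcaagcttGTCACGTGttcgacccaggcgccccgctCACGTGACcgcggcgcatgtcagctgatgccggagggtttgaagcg
Gaa promoter, GRCr8 chr10:105028105-105028404, plus strand: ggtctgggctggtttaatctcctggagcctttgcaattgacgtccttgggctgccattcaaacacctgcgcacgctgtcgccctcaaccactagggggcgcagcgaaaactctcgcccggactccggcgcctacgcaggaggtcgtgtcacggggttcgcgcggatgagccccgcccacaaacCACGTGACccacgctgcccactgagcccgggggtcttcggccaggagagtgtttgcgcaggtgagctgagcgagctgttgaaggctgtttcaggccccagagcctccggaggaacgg
Lamp1 promoter, GRCr8 chr16:83075014-83075313, minus strand: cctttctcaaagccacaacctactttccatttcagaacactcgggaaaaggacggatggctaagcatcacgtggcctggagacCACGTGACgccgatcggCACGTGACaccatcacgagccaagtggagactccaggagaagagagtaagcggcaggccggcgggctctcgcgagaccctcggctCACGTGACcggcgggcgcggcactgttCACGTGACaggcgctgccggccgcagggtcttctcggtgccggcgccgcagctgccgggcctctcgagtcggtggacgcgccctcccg
Matches began 157 and 10 bases before the start in Ctsd and 102 bases before it in Glb1. In Mcoln1 one began 24 bases before the start and the other just after it. In Gaa the match began 67 bases before the start. Lamp1 had 4 matches, at 167, 150, 65 and 38 bases before the start. The sixth member with the motif was Atp6v0d1. A match is a run of letters and not a measured binding site, and no binding data were used here.

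In the MCT lungs 17 of the 37 lysosomal genes were higher and 1, Npc1, was lower, while 19 did not pass the test. The calls are from edgeR's quasi-likelihood test at a Benjamini-Hochberg adjusted p under 0.05 over all genes tested. Of all 16715 genes, 11.0% were called higher and 9.45% lower, against 45.9% and 2.70% of the members. The members were chosen with earlier results of these data known, so this contrast describes them and is not a test. The median log2 fold change (MCT minus control) of the members was 0.34, against 0.03 for all genes tested, and 31 of the 37 had a value above 0, against 52.4% of all genes. Ctsk and Ctss passed the threshold with a log2 fold change of at least 1, as did 3.70% of all genes. The changes were mostly modest: Ctsk had the largest rise, 2.69-fold by mean FPKM (fragments per kilobase of transcript, scaled to sequencing depth), and 12 of the 17 genes called higher had a log2 fold change under 0.8. FPKM did not overlap between the groups for 18 members with MCT higher and for 2 with MCT lower, against 13.3% and 11.7% of all genes tested. With 1 library left out, 12 to 22 members were called higher; the count was 12 without MCT 2, MCT 4, control 1 or control 4, and 22 without MCT 1, where Ctsl, Tpp1, Lamp2, Laptm5 and Atp6v1h were gained.

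**Figure D1:**
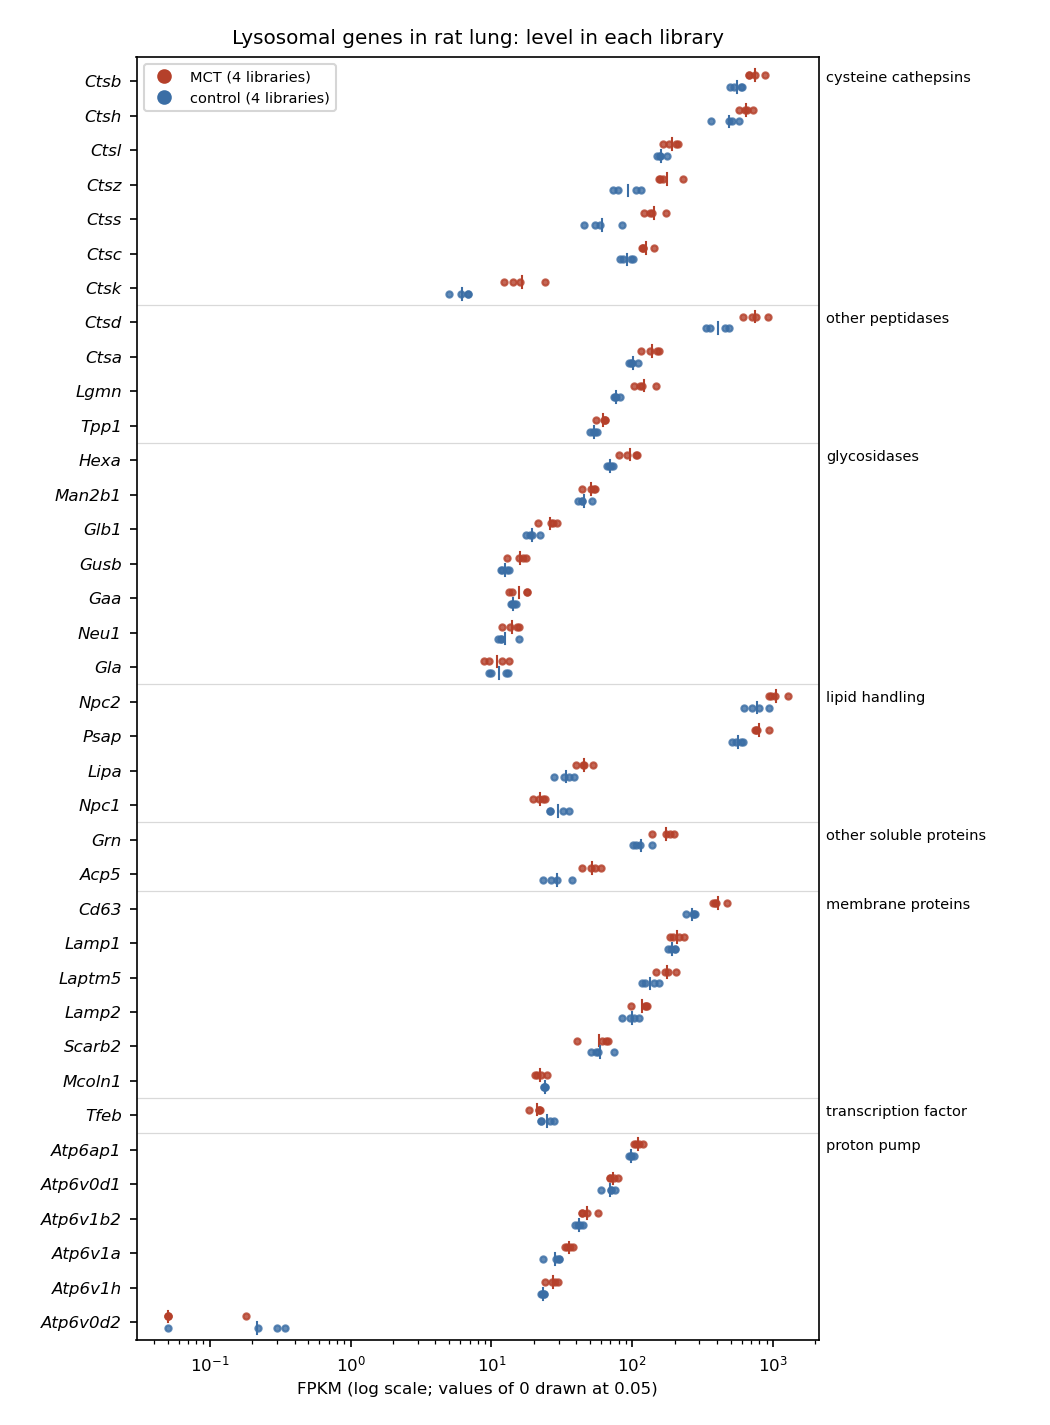
FPKM of the 37 lysosomal genes in each library on a log axis, with MCT libraries in red above control libraries in blue; dots are libraries and vertical ticks are group means (n = 4 each). The levels run from near 0 for Atp6v0d2 to above 930 for Npc2 in every MCT library, and the MCT dots of Ctsk, Ctss, Ctsz and Ctsd lie to the right of all their control dots.

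**Figure D2:**
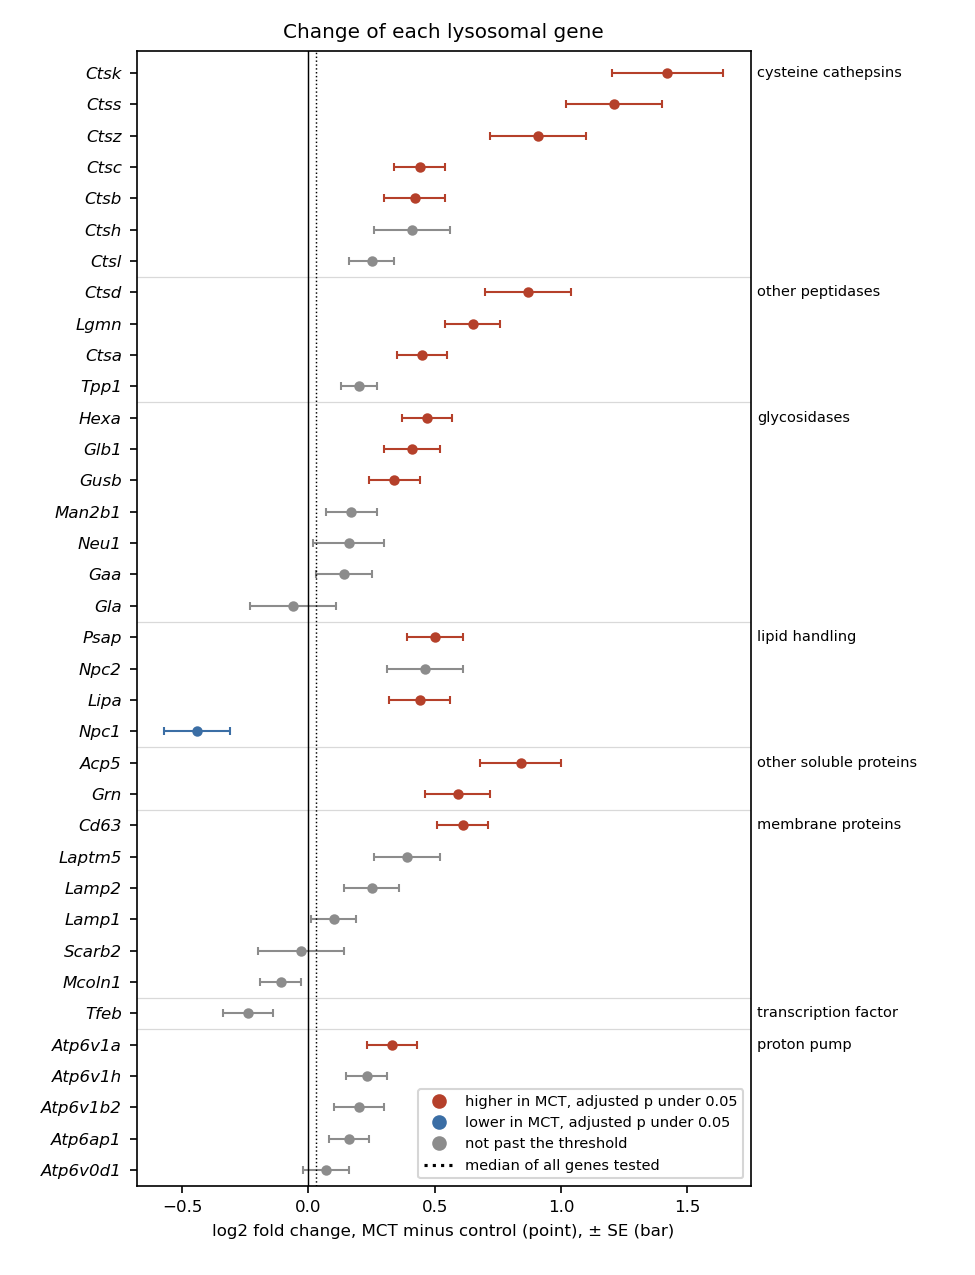
Log2 fold change (MCT minus control) of each lysosomal gene with its SE, grouped by role; red is called higher, blue called lower and grey not called, and the dotted line is the median of all genes tested, 0.03. Atp6v0d2 is left out because it was at or near 0. The peptidases hold the largest rises, and Tfeb, Mcoln1, Scarb2, Gla and Npc1 lie to the left of 0.

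Whole lung holds many cell types, so fewer cells of a type and less RNA per cell cannot be told apart in these values. Surfactant protein C (Sftpc), the defining product of alveolar type 2 cells, averaged 15164 ± 1421 FPKM in MCT and 21541 ± 3575 FPKM in control (SD, n = 4 each). Estimated depth was 11.1 to 17.9 M read pairs per MCT library, against 10.7 to 14.6 M per control library. Lysosome was also the table's own label for most of the members: its KEGG column put 33 of the 37 in the lysosome pathway and its GO column named the lysosome for 28.

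The 7 cysteine cathepsins among the members all had positive log2 fold changes and 5 were called higher, with a median of 0.44. Of all genes tested, 52.4% had a positive value and 11.0% were called higher. Ctsf and Ctsw, cathepsins outside the members, had log2 fold changes of -0.28 and 0.44 (edgeR adjusted p 0.208 and 0.45). Neither passed the test, and both were named after their values were seen. Ctsf averaged 52.5 FPKM in MCT and 63.6 FPKM in control. Ctsk, a collagen-degrading cathepsin best known from bone-resorbing osteoclasts, was at 16.1, 23.8, 12.25 and 14.3 FPKM in MCT 1 to 4, against 6.86, 6.81, 6.05 and 5.01 FPKM in control 1 to 4. Every MCT library was above every control library, and MCT 2 was the highest. Its log2 fold change was 1.42 (SE 0.22, edgeR adjusted p 0.00271). Ctsk (ENSRNOG00000021155) lies on chromosome 2 from 196655469 to 196666446 on the build of the files, Rnor_6.0.

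Ctss, which cuts the invariant chain of MHC class II in antigen-presenting cells and stays active at neutral pH, was at 134, 175, 138 and 121 FPKM in MCT, against 45.5, 54.7, 85.2 and 59.2 FPKM in control. The groups did not overlap, and control 3 was the highest control library. Its log2 fold change was 1.21 (SE 0.19, edgeR adjusted p 0.00341). Ctss (ENSRNOG00000021157) lies on chromosome 2 from 197655786 to 197679458.

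Ctsz, a carboxypeptidase, was at 157, 229, 154 and 164 FPKM in MCT, against 79.7, 106, 116 and 72.4 FPKM in control. No MCT value was as low as any control value, and MCT 2 stood well above the other MCT libraries. Its log2 fold change was 0.91 (SE 0.19, edgeR adjusted p 0.0102). Ctsc, which activates the serine proteases of mast cell, neutrophil and lymphocyte granules by removing dipeptides, averaged 125 ± 12.2 FPKM in MCT and 92.0 ± 8.94 FPKM in control, a log2 fold change of 0.44 (edgeR adjusted p 0.0155). Ctsb, the most abundant cysteine cathepsin in both groups by FPKM, averaged 742 ± 92.5 FPKM in MCT and 554 ± 51.9 FPKM in control (0.42, edgeR adjusted p 0.0357). Its call was lost without MCT 2, MCT 4, control 1, control 2 or control 4, at adjusted p of 0.0543 to 0.0921. Ctsh, an aminopeptidase that takes part in the processing of surfactant proteins in alveolar type 2 cells, had a log2 fold change of 0.41 and Ctsl, a broad endopeptidase, one of 0.25, and neither passed the test (edgeR adjusted p 0.0844 and 0.0791).

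Of the 4 other peptidases, 3 were higher, against 11.0% of all genes tested. Ctsd, the main aspartic protease of the lysosome, was at 754, 918, 613 and 704 FPKM in MCT, against 332, 454, 489 and 359.6 FPKM in control. All MCT libraries were above all control libraries, with MCT 2 the highest and control 1 the lowest. Its log2 fold change was 0.87 (SE 0.17, edgeR adjusted p 0.0078). Ctsd (ENSRNOG00000020206) lies on chromosome 1 from 215541542 to 215553451 on Rnor_6.0, and its promoter window is the first printed above.

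Lgmn, legumain, an asparaginyl endopeptidase that also matures cathepsin precursors, was at 103, 148, 117 and 114 FPKM in MCT, against 75.0, 81.3, 76.4 and 73.9 FPKM in control. The control libraries lay close together and below every MCT library. This was a log2 fold change of 0.65 (SE 0.11, edgeR adjusted p 0.00444). Ctsa, a carboxypeptidase that also protects the sialidase Neu1 and the galactosidase Glb1 from breakdown, averaged 139 ± 17.9 FPKM in MCT and 101 ± 6.16 FPKM in control (0.45, edgeR adjusted p 0.0132). Ctsa overlaps 157 bases of Pltp on the other strand, and whether the counting used strand is not stated, so reads there cannot be told apart. Tpp1, a tripeptidyl peptidase, had a log2 fold change of 0.20 (edgeR adjusted p 0.084).

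The 9 cathepsins among the members did not keep the same proportions in both groups. Ctsd made up 27.2%, 26.8%, 23.4% and 24.5% of their summed FPKM in MCT, against 19.6%, 21.3%, 22.7% and 19.4% in control. Ctsb made up 24.5% to 25.8% of the sum in MCT, against 26.8% to 31.0% in control. Ctsd was the largest component in MCT 1 and MCT 2, and Ctsb in MCT 3, MCT 4 and every control library. Ctss averaged 4.85% of the sum in MCT and 3.10% in control. Ctsk remained a minor component at 0.56% in MCT and 0.32% in control. These shares are descriptions of FPKM and carry no test.

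The glycosidases, which trim sugars from glycoproteins, glycolipids and glycogen, had 3 of 7 members higher and none lower. Of all genes tested, 11.0% were higher and 9.45% lower. The median log2 fold change of the glycosidases was 0.17. Hexa, the alpha subunit of beta-hexosaminidase, was at 81.0, 106, 91.2 and 108 FPKM in MCT, against 66.1, 73.6, 70.1 and 68.0 FPKM in control. The lowest MCT library, MCT 1, was still above the highest control library. Hexa rose by 0.47 on the log2 scale (SE 0.10, edgeR adjusted p 0.0115).

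Glb1, beta-galactosidase, had a log2 fold change of 0.41 (edgeR adjusted p 0.0266) and Gusb, beta-glucuronidase, one of 0.34 (edgeR adjusted p 0.0412). Both calls were lost when single libraries were left out. That of Glb1 was lost without MCT 2, 3 or 4 or control 1, 2 or 4 (adjusted p 0.0618 to 0.0763), and that of Gusb without any library other than MCT 1 (0.0542 to 0.125). Gusb also overlaps 5071 bases of Vkorc1l1 on the other strand. Man2b1, an alpha-mannosidase, Neu1, a sialidase, Gaa, which breaks down glycogen, and Gla, alpha-galactosidase A, had log2 fold changes of 0.17, 0.16, 0.14 and -0.06 and did not pass the test.

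Among the 4 proteins that handle lipids, 2 were higher and 1 lower, against 11.0% and 9.45% of all genes tested. Psap, the precursor of the saposins that present sphingolipids to their hydrolases, was at 769.7, 929.5, 753 and 748 FPKM in MCT, against 548, 591, 612 and 513 FPKM in control. The groups did not overlap and 3 of the MCT libraries lay close together, below MCT 2. The log2 fold change was 0.50 (SE 0.11, edgeR adjusted p 0.0128). Lipa, the acid lipase that frees cholesterol from its esters, averaged 45.7 ± 5.32 FPKM in MCT and 33.7 ± 4.54 FPKM in control (0.44, edgeR adjusted p 0.0348), a call lost without MCT 2, 3 or 4 or control 1, 3 or 4 (adjusted p 0.058 to 0.0964).

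Npc1 and Npc2 act together, Npc2 in the lumen and Npc1 in the membrane, to pass cholesterol out of the lysosome. Npc1 was at 24.1, 21.7, 23.2 and 19.7 FPKM in MCT, against 25.9, 35.5, 32.3 and 25.9 FPKM in control. Every MCT library was below every control library, although MCT 1 and control 1 and 4 lay close together. Its log2 fold change was -0.44 (SE 0.13, edgeR adjusted p 0.0431), and the call was lost without MCT 2, 3 or 4 or control 2 or 3 (adjusted p 0.0857 to 0.104). Npc1 (ENSRNOG00000012016) lies on chromosome 18 from 3616878 to 3662683 and overlaps 406 bases of Rmc1 on the other strand. Npc2, the member with the highest FPKM, averaged 1054 ± 156 FPKM in MCT and 764 ± 132 FPKM in control. Its log2 fold change of 0.46 did not pass the test (edgeR adjusted p 0.0635), and the lowest MCT library and the highest control library, MCT 3 and control 3, were almost equal.

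Both of the remaining soluble proteins were higher, against 11.0% of all genes tested. Acp5, the tartrate-resistant acid phosphatase of macrophages and osteoclasts, was at 59.6, 54.5, 44.1 and 50.6 FPKM in MCT, against 26.5, 29.2, 37.4 and 23.3 FPKM in control. The groups did not overlap, and here MCT 1 was the highest library. This was a log2 fold change of 0.84 (SE 0.16, edgeR adjusted p 0.00696). Grn, progranulin, a secreted protein that is cut into granulins in the lysosome, averaged 174 ± 25.1 FPKM in MCT and 115 ± 16.6 FPKM in control (0.59, edgeR adjusted p 0.0151).

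In the lysosomal membrane 1 of 6 members was higher and none lower, against 11.0% and 9.45% of all genes tested. Cd63, a tetraspanin of late endosomes, lysosomes and secretory granules, was at 393, 471, 388 and 375 FPKM in MCT, against 279.6, 276, 268.5 and 239.98 FPKM in control. All MCT libraries were well above all control libraries. Cd63 rose by 0.61 on the log2 scale (SE 0.10, edgeR adjusted p 0.0034). Lamp1 and Lamp2, the main glycoproteins of the lysosomal membrane, had log2 fold changes of 0.10 (SE 0.09) and 0.25 (SE 0.11), with edgeR adjusted p of 0.486 and 0.141. Laptm5, a lysosomal protein of blood cell lineages, had one of 0.39 (edgeR adjusted p 0.0608). Scarb2, which carries glucocerebrosidase to the lysosome, and Mcoln1, a calcium channel, were at -0.03 and -0.11 and did not pass the test.

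Tfeb, the transcription factor that drives many lysosomal genes, was not higher. It was at 21.6, 22.2, 18.5 and 21.6 FPKM in MCT, against 28.0, 22.6, 25.9 and 22.5 FPKM in control. All MCT values were below all control values, but MCT 2 and control 4 were close together. The difference of -0.24 (log2, SE 0.10) did not pass the test (edgeR adjusted p 0.129). Of the 6 members with the motif in the promoter window, 2 (Ctsd and Glb1) were called higher, with a median log2 fold change of 0.12. Of the 25 with a window and no match, 12 were called higher, with a median of 0.39. Of all genes tested, 11.0% were called higher. Ctsk, Ctss and Ctsz, which rose most, had no match, while Ctsd, next with a log2 fold change of 0.87, had 2. Ctsb, Hexa and Psap were also called higher but had no window to search. The difference between members with and without a match was not tested, nor was any part of Tfeb in these changes.

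The proton pump is a rotary enzyme with a cytosolic sector that splits ATP and a membrane sector that carries protons. Of its 6 members, 1 was higher and none lower, against 11.0% and 9.45% of all genes tested. Atp6v1a, the catalytic subunit, was at 33.1, 37.9, 34.2 and 36.3 FPKM in MCT, against 23.3, 30.0, 28.8 and 30.4 FPKM in control. The groups did not overlap, and control 1 was the lowest library. The log2 fold change was 0.33 (SE 0.10, edgeR adjusted p 0.0449), and the call was lost without any library other than MCT 1 (adjusted p 0.0614 to 0.118).

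Atp6v1h, Atp6v1b2 and the accessory subunit Atp6ap1 had log2 fold changes of 0.23, 0.20 and 0.16, and Atp6v0d1, a subunit of the membrane sector, one of 0.07, none past the test. Atp6v0d1 overlaps 1859 bases of an antisense gene. Atp6v0d2, the paralog of Atp6v0d1 that osteoclasts and some macrophages use, was at or near 0: its deposited counts were 0, 0, 0 and 18 in MCT and 18, 0, 18 and 20 in control, so about 4.8 read pairs in all MCT libraries and 15.1 in all control libraries. No fold change is read from so few reads.

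Among 16 other subunits tested, 4 were higher and 1 lower (2 lower without MCT 4), against 11.0% and 9.45% of all genes tested. Atp6v1d, a subunit of the central shaft, averaged 85.1 ± 2.24 FPKM in MCT and 53.2 ± 2.82 FPKM in control, a log2 fold change of 0.67 (SE 0.07, edgeR adjusted p 0.000508). Atp6v0e1 rose by 0.46 and Atp6v1e1 by 0.41. Atp6v1c2, a subunit isoform, fell by 0.52, with 27.9 ± 4.27 FPKM in MCT and 40.1 ± 0.867 FPKM in control (edgeR adjusted p 0.0111).

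**Figure D3:**
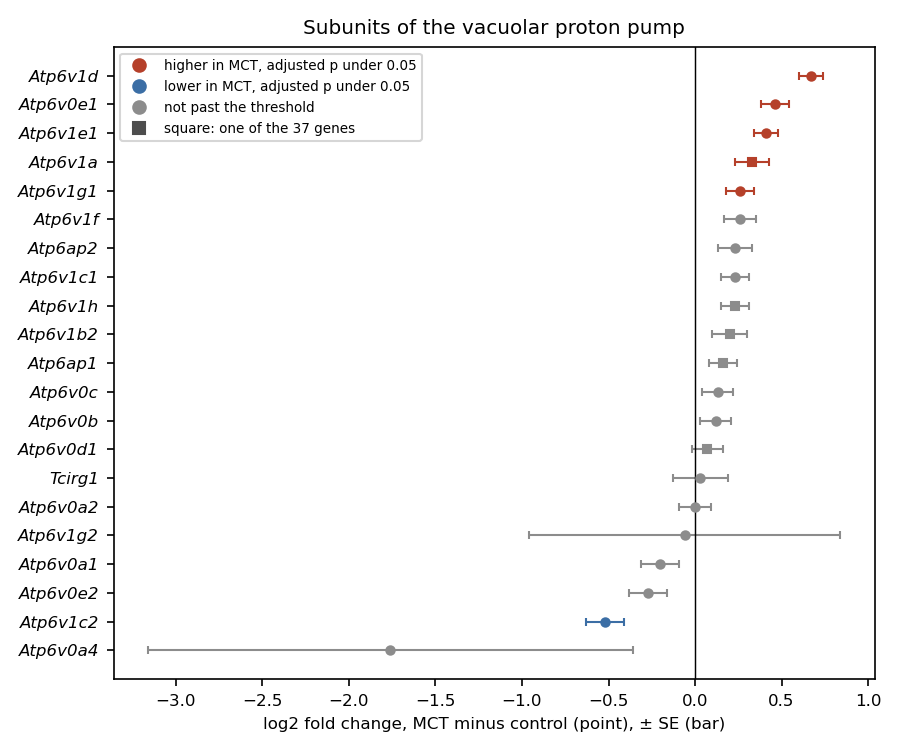
Log2 fold change (MCT minus control) and SE of 21 tested proton pump subunits, with squares for the members and circles for the other subunits; red is called higher, blue called lower, grey not called. Atp6v1d at 0.67 has the largest rise, and the wide bars of Atp6v0a4 and Atp6v1g2 belong to genes with low or uneven counts.

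The rest of the lysosome was examined through lists of other genes. Across 7 lists, 28 of 146 tested genes were higher and 15 lower, with a median log2 fold change of 0.14. Without MCT 2 these counts were 18 and 8, without MCT 3 they were 19 and 7, and without control 4 they were 18 and 14. The number lower was 9 without control 2 and 9 without control 3. In the table's KEGG lysosome pathway, 19 of the 81 tested genes outside the members were higher (23.5%) and 7 lower (8.64%). The number lower there was 2 without MCT 3 or control 2, 3 without control 3 and 4 without MCT 1 or MCT 2. Of the 265 tested genes that carry the GO term lysosome and are not members, 39 were higher (14.7%) and 34 lower (12.8%). The number higher was 19 without MCT 2, 23 without MCT 4 and 21 without control 4, and the number lower was 22 without control 3. Among all genes tested 11.0% were higher and 9.45% lower, so the shares of the GO set lie near the background. The members, chosen with earlier results of these data known, stood at 45.9% higher, and the differences between these sets were not tested.

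Among 37 other hydrolases and activators tested, 9 were higher and 2 lower, against 11.0% and 9.45% of all genes tested. Only 5 of the 37 were higher without MCT 2, MCT 4 or control 4. Plbd1, a phospholipase B-like protein, rose by 1.11 (SE 0.18), Galc, which breaks down galactosylceramide, by 1.07 (SE 0.18), and Gm2a, the activator that presents gangliosides to beta-hexosaminidase, by 0.82 (SE 0.13), with edgeR adjusted p of 0.00321, 0.00342 and 0.00329. Those lower were Napsa, an aspartic protease of alveolar type 2 cells (-0.40), and Hyal1, a hyaluronidase (-0.70). Among 28 other membrane proteins, 5 were higher and 2 lower, against the same 11.0% and 9.45% of all genes tested. The number higher was 2 without control 4 and 3 without any other single library except MCT 1. Neither list was tested as a set. Gpnmb, a glycoprotein of lipid-laden macrophages, averaged 206 ± 40.5 FPKM in MCT and 96.7 ± 25.3 FPKM in control (1.08, SE 0.22), and Cd68, the lysosomal membrane marker of macrophages, averaged 110 ± 32.7 FPKM in MCT and 52.5 ± 14.1 FPKM in control (1.06, SE 0.24). The edgeR adjusted p was 0.00902 for Gpnmb and 0.0165 for Cd68. The lower ones were the transporter Abca2 (-0.46) and Cln3 (-0.36). Calls were lost for Napsa without MCT 3 or 4 or control 2 or 3 (adjusted p up to 0.0727), for Hyal1 without any library other than MCT 4 and control 1 (up to 0.115), and for Cln3 without any other than MCT 2 and control 4 (up to 0.114).

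Of 20 genes for sorting enzymes to the lysosome, 3 were higher and 3 lower, with 1 lower without MCT 2, MCT 3 or control 2. Of all genes tested, 11.0% were higher and 9.45% lower, and neither this list nor the next was tested as a set. Gnptab, which makes the mannose 6-phosphate tag, fell by 0.45 (edgeR adjusted p 0.009), and the adaptors Gga2 and Gga1 by 0.35 and 0.44. The adaptor subunits Ap1s2 and Ap1s1 rose by 0.66 and 0.47. Of 18 genes of Tfeb relatives and lysosomal nutrient sensing, 4 were higher and 2 lower. Only 2 were higher without MCT 2, 3 or 4 or control 1 or 4, and 1 lower without MCT 2, MCT 3 or control 2. Tfec, a relative of Tfeb found in macrophages and other myeloid cells, was at 1.77, 3.67, 3.11 and 2.73 FPKM in MCT, against 0.70, 0.92, 1.20 and 0.77 FPKM in control. The groups did not overlap, and the log2 fold change was 1.63 (SE 0.30, edgeR adjusted p 0.00539). Lamtor4 rose by 0.49, while Flcn, which holds Tfeb-family factors in check through nutrient sensing, and Tsc1, an inhibitor of mTORC signalling, fell by 0.40 and 0.56. Calls were lost for Gga2 without MCT 1, 2 or 3 or control 1 or 2 (adjusted p up to 0.0921), for Gga1 without any library other than MCT 1 and control 4 (up to 0.112), and for Tsc1 without MCT 1, 2 or 3 or control 2 or 4 (up to 0.0938).

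Of 6 cathepsin inhibitors tested, 2 were higher: Cstb, a cytosolic cystatin, by 0.67 (SE 0.09, edgeR adjusted p 0.0012) and Cst6 by 0.96 (SE 0.25, edgeR adjusted p 0.0275). The abundant secreted inhibitor Cst3 averaged 1596 ± 254 FPKM in MCT and 1239 ± 57.8 FPKM in control and did not pass the test (0.36, edgeR adjusted p 0.0516). It was chosen after its values were seen. Without MCT 1, 4 of the 6 inhibitors were higher. Of 21 autophagosome genes tested, 5 were lower and 1 higher, against 9.45% and 11.0% of all genes tested. Their median log2 fold change was 0.02. Only 2 were lower when MCT 2 was left out, and 3 when MCT 3 or control 3 was. Uvrag fell by 0.38, Atg9a by 0.40, Atg14 by 0.49, Gabarapl1 by 0.36 and Ulk1 by 0.41, while Gabarap rose by 0.36. The call of Cst6 was lost without control 2 or control 3 (adjusted p up to 0.0757), of Atg14 without MCT 2 (0.0542), of Gabarapl1 without MCT 2, 3 or 4 or control 3 (up to 0.0834) and of Ulk1 without MCT 2 or 3 or control 1, 3 or 4 (up to 0.111).

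**Figure D4:**
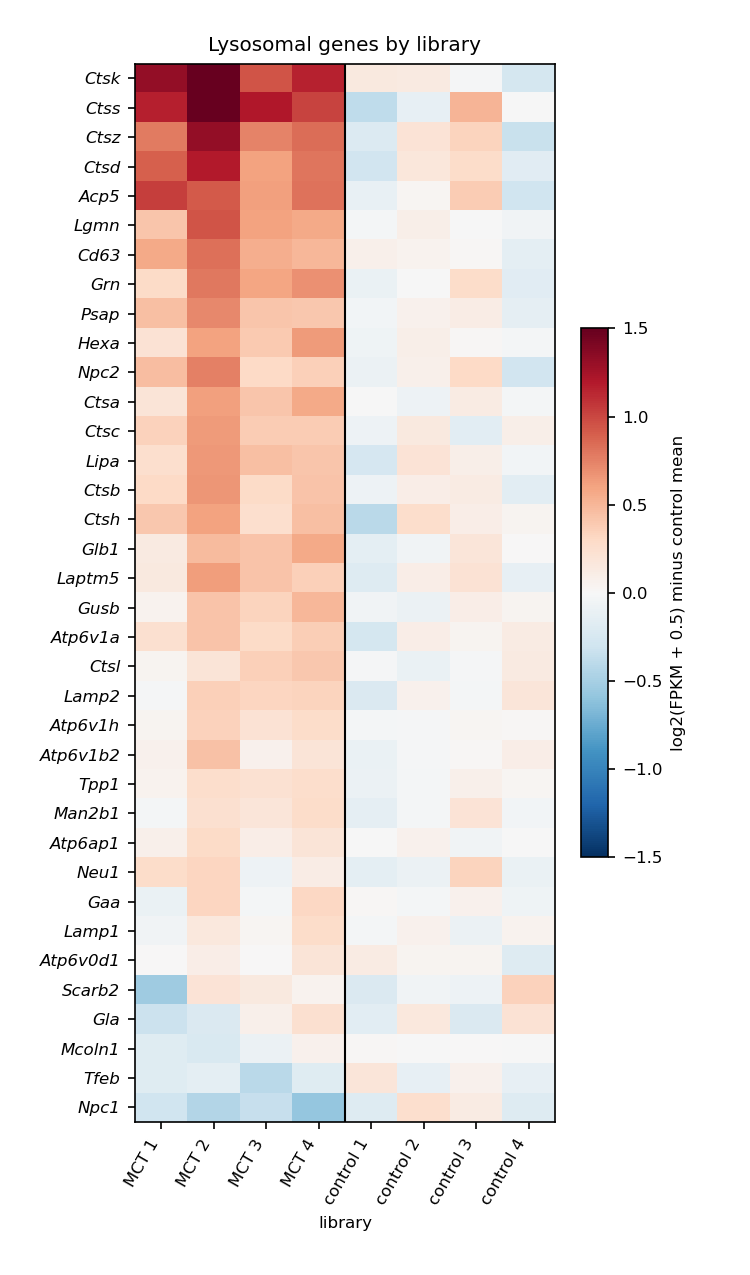
Log2(FPKM + 0.5) of 36 lysosomal genes in each library relative to the control mean of the gene, MCT libraries left and control libraries right, genes ordered by log2 fold change; red is above and blue below the control mean, and the colours end at 1.5 in each direction. MCT 2 is the reddest column, MCT 1 is paler for most genes, and Npc1 and Tfeb are blue in all MCT libraries.

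Within each group the same libraries tended to be high or low for many members. MCT 2 was the highest MCT library for 24 of the 37 members and MCT 1 the lowest for 22. Among the control libraries, control 3 was the highest for 17 and control 1 the lowest for 15. The members together took 1.10%, 1.38%, 1.10% and 1.20% of all FPKM in MCT, against 0.814%, 0.983%, 1.04% and 0.872% in control. Markers of macrophages, which are rich in lysosomes, moved in the same direction. Of all genes tested, 11.0% were called higher and 9.45% lower. Of 17 macrophage markers tested, 11 were higher in MCT and none lower. Those with the smallest p were Aif1 (1.48), C1qc (1.84) and C1qa (1.78), and the largest log2 fold changes were those of Trem2 (2.54) and Fabp4 (2.43), named after their values were seen. Their summed level over 18 genes was 588, 964, 852 and 750.0 FPKM in MCT, against 263, 283, 387 and 315 FPKM in control. MCT 2 and control 3 were the highest libraries of their groups in this sum, as in the summed FPKM of the members. Control 1 was the lowest control library in both sums, but the lowest MCT library was MCT 1 for the macrophage markers and MCT 3 for the members, at 6264 FPKM beside 6377 FPKM in MCT 1. This order was not particular to macrophage markers. In the sum of the alveolar type 2 markers, which was lower in MCT, MCT 2 was also the highest MCT library. Control 1 was the lowest control library there too, but control 2 was the highest. Fabp4 did not follow the macrophage sum within MCT: it was at 81.9, 56.6, 47.3 and 28.8 FPKM in MCT 1 to 4. Csf1r, the receptor for macrophage colony-stimulating factor, did not pass the test (0.18, edgeR adjusted p 0.381). Neither did Cd163 (1.07), Mrc1 (0.72), Itgam (0.25), Itgax (0.08) or Mertk (-0.03), and Marco was near 0 in all libraries. These genes were chosen after their values were seen. The part of macrophage content in the rise of the lysosomal genes was not tested.

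**Figure D5:**
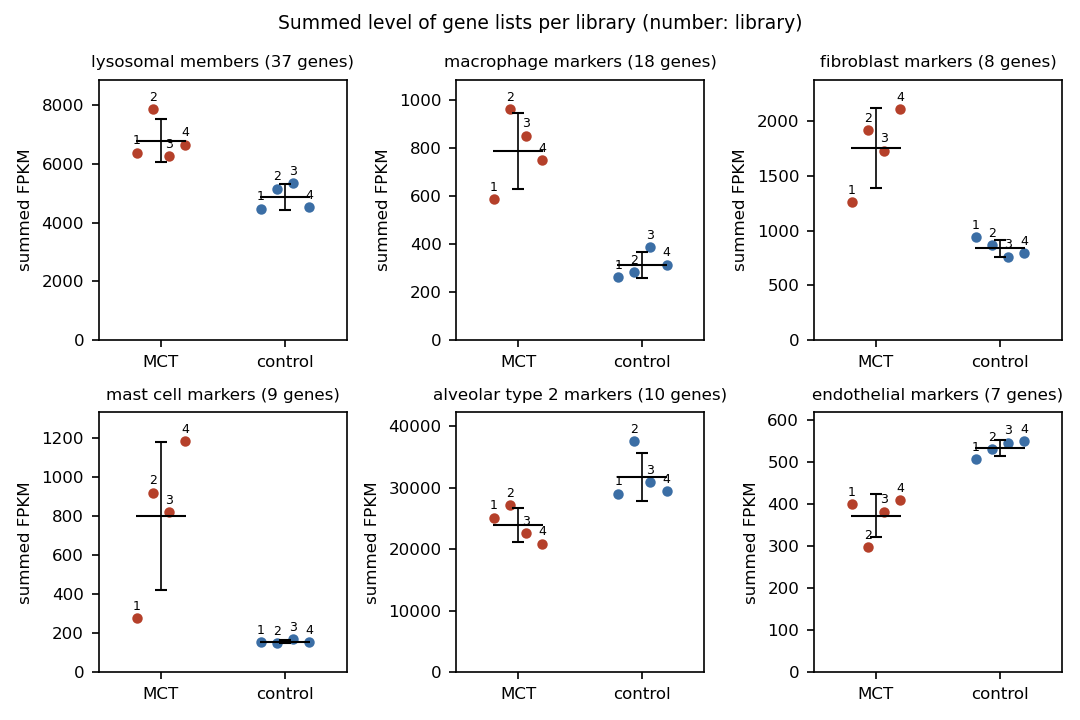
Summed FPKM per library of the lysosomal members and of 5 lists of cell type markers, MCT left and control right; dots are libraries with their number, and bars are the mean ± SD (n = 4 each). MCT 2 is the highest and control 1 the lowest library both for the members and for the macrophage markers. For the alveolar type 2 markers too, MCT 2 is the highest MCT library and control 1 the lowest control library.

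Markers of some other cells differed too. Of all genes tested, 11.0% were called higher and 9.45% lower, and none of the marker lists was tested as a set. Among 8 genes of osteoclasts and multinucleated macrophages tested, 4 were higher and 1, Itgb3 (-0.47), was lower. Calcr, the calcitonin receptor, had deposited counts of 20, 67, 37 and 85 in MCT and 0 in every control library, which is at least 17.1-fold higher against a floor of 3 read pairs over the control group. Oscar rose by 1.80 and Car2 by 0.87, and the median of that list was 0.73, also with Calcr at its bound. The sum of 9 such genes was 101 to 151 FPKM in MCT, against 67.6 to 76.3 FPKM in control. Car2 made up 77.6% of that sum in MCT and 68.0% in control, and without it the sums overlapped, at 23.3 to 29.2 FPKM in MCT and 20.6 to 27.3 FPKM in control. The Itgb3 call was lost without any library other than control 1 (adjusted p up to 0.0934). Of 8 fibroblast markers, 5 were higher, with the matrix genes Col1a1 at 1.70, Fn1 at 1.63 and Col3a1 at 1.41. Pdgfra (0.08), Dcn (-0.07) and Tcf21 (0.15) did not pass the test and were named after their values were seen. The sum of the fibroblast markers was 1260 to 2111 FPKM in MCT, against 761 to 939 FPKM in control. The number higher was 3 without control 2. Of 9 mast cell markers, 7 were higher and 2 lower. Cpa3 rose by 5.84 and Ms4a2 by 5.30, and Kit fell by 0.96. Gata2 was lower, with 36.2 ± 3.49 FPKM in MCT and 89.0 ± 9.21 FPKM in control (edgeR adjusted p 0.00022). The sum was 279 to 1184 FPKM in MCT, against 151 to 169 FPKM in control. Most of the control sum, which averaged 157 FPKM, was Gata2 and Kit, with Kit at 52.2 ± 4.47 FPKM. The sum therefore understates the rise of the other mast cell markers. Of 8 neutrophil markers, only Il1r2 was higher (1.65), and the sums overlapped, at 29.3 to 97.1 FPKM in MCT and 14.9 to 40.3 FPKM in control.

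Of 10 alveolar type 2 markers, 5 were lower and 1 higher, against 9.45% and 11.0% of all genes tested. Slc34a2 fell by 1.08, Etv5 by 0.87, Abca3 by 0.75, Sftpc by 0.51 and Napsa by 0.40, while Lamp3, a lamellar body and lysosome protein, rose by 0.64 (edgeR adjusted p 0.0177) and was chosen after its values were seen. The Sftpc call was lost without any library other than control 4 (adjusted p up to 0.1). Their sum was 20942 to 27187 FPKM in MCT, against 29039 to 37602 FPKM in control. Without Sftpc, which made up 63.2% of the sum in MCT and 67.8% in control, the sums overlapped, at 7279 to 10134 FPKM in MCT and 8725 to 10807 FPKM in control. The number lower was 3 without MCT 3, MCT 4, control 2 or control 3, and none was higher without control 4. Of 6 alveolar type 1 markers only Rtkn2 was lower (-0.81), with 2 lower without control 1, and sums of 2574 to 3112 FPKM in MCT and 3221 to 3567 FPKM in control. Of 7 endothelial markers, Tek (-2.61) and Vwf (-0.82) were lower and Emcn (1.15) higher, with sums of 298 to 409.8 FPKM in MCT and 508 to 551 FPKM in control. Without MCT 1, 4 of them were lower. Of 7 T and NK cell markers, Prf1 (-2.01), Cd8a (-1.01) and Gzmb (-1.54) were lower and Cd3g (0.86) higher (2 were higher without control 3), and the sums were 53.9 to 75.0 FPKM in MCT and 63.8 to 105 FPKM in control. The Gzmb call was lost without MCT 2 or 4 or control 3 or 4 (adjusted p up to 0.0649). None of 7 ciliated cell markers was called, 1 was lower without MCT 1, and their median log2 fold change was 0.09. Tppp3 (-0.39) made up 93.9% of their sum in MCT and 96.1% in control. Without it the sums overlapped, at 15.7 to 56.8 FPKM in MCT and 16.7 to 36.2 FPKM in control. What these cell types contributed to the lysosomal genes was not tested.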

How the data were processed

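Gene expression was measured in 4 MCT and 4 control libraries of rat lung. The authors used cutadapt 1.9, HISAT2 2.0.4, StringTie 1.3.4d and edgeR and the build Rnor_6.0. These names come from the submitters' processing notes, without order or settings. The deposited table gives an estimated count and an FPKM value for each gene and library, per the file headers. Low values of the deposited estimated counts, all whole numbers, pile up at multiples of about 3.72 units, so depth is given as counts divided by that spacing. How strand and reads shared between paralogs were counted is not given there.

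Counts were kept by filterByExpr (minimum count 10), scaled by TMM and tested with edgeR 4.0.16 (quasi-likelihood, robust, two-sided, R 4.3.3). SEs are the absolute log2 fold change over the square root of F. FPKM is given as mean ± SD. The alternatives were other scalings and filters, DESeq2 1.42.0, limma 3.58.1 on log2(FPKM + 0.5), with 0.1 or 1 in place of 0.5, and on counts with sample weights, the replicate number as a block, libraries left out, and counts divided by the spacing. The edgeR step was checked on simulated data. No 2 libraries of a group were duplicates (chi-square per gene of at least 15.1).

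The members and lists were chosen with earlier results of these data known; the GO and KEGG sets were added later. All members are named. Values in every library are given for members called with a log2 fold change of 0.8 or more in size or called lower, and for the called member with the smallest p in each role, or the most abundant where none was called. In other lists the 3 smallest p among called genes and all called lower were named. Other genes are given as examples. Protein sequences were not used here.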

Additional observations from a re-analysis of the deposited data

Results flagged for a closer look

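A single library stood far from the 3 others of its group in 14 of 190 cases examined on log2(FPKM + 0.5), where about 9.5 are expected at 1 in 20. Of these, 8 were among the 74 cases of members, where about 3.7 are expected. The same libraries were high or low for many members, so the cases are not independent and the excess is not a test. The gap to the nearest library as a share of the range was 0.8646 for Ctsc (MCT 2 at 143 FPKM, other MCT libraries at 117 to 119.9), 0.8425 for Ctsz (MCT 2 at 229, others at 154 to 164) and 0.8702 for Psap (MCT 2 at 929.5, others at 748 to 769.7). It was 0.8389 for Tpp1 (MCT 1 at 55.4, others at 62.8 to 64.3), 0.9081 for Lamp2 (MCT 1 at 97.9, others at 123.5 to 126) and 0.8346 for Tfeb (MCT 3 at 18.5, others at 21.6 to 22.2). For Neu1 it was 0.8868 (control 3 at 15.8, others at 11.2 to 11.6), and for Atp6v0d2 it was 1 (MCT 4 at 0.18, others at 0). The value for Atp6v0d2 follows from the zeros of the other MCT libraries and rests on very few reads.

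Among the genes of the other lists, the same share was 0.8682 for Plbd1 (MCT 1 at 10.8 FPKM, others at 16.3 to 17.3), 0.8291 for Hyal1 (control 4 at 45.6, others at 27.1 to 29.6) and 0.8298 for Cd68 (MCT 2 at 158, others at 89.8 to 98.9). It was 0.8552 for Cst6 (MCT 1 at 18.2, others at 10.2 to 11.1), 0.9057 for Ms4a2 (MCT 1 at 13.7, others at 37.3 to 41.4) and 0.9053 for Gzmb (MCT 3 at 3.19, others at 1.18 to 1.31).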

How the results depend on the processing

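Under the 20 alternatives, 12 of the 17 members called higher kept that call throughout: Acp5, Cd63, Ctsa, Ctsc, Ctsd, Ctsk, Ctss, Ctsz, Grn, Hexa, Lgmn and Psap. Ctsb, Glb1, Gusb, Lipa and Atp6v1a lost theirs under at least 6 alternatives, as did Npc1, and no call changed direction. The number of members called higher was 12 to 22 with 1 library left out, 15 with DESeq2's scaling in edgeR or with no filter, 20 with DESeq2 and 21 with limma and sample weights. The number called lower was 0 to 1 with 1 library left out and 0 with the replicate number as a block (replicate block), where 16 were higher. Same-numbered libraries did not deviate together (r of -0.081 to 0.105), so the numbers were not taken to pair them. For the 7 other lysosome lists, leaving out 1 library gave 18 to 33 higher and 7 to 14 lower, and the replicate block gave 24 and 10. Of the 57 called genes named from other lists, 14 lost their call somewhere, and with MCT 1 and control 1 both left out Cd68 had an adjusted p of 0.0558. Depth limits only Atp6v0d2 among the members.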
